A study of Homo sapiens with 2 samples.

Results

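The ion cotransporter and exchanger families treated here are 10 families of solute carriers: SLC4, SLC5, SLC8, SLC9, SLC12, SLC13, SLC20, SLC24, SLC26 and SLC34. A gene was a member when its symbol in the array's annotation had one of these family names followed by a member number, and when it had a group of probes (a probeset) annotated to that symbol alone. This gave 68 genes with 1582 probesets, of 18923 genes in all. Not every human gene of these families had such a probeset, and those without one are not analysed here. MKN45 is a human gastric cancer line, and MKN45P is a highly metastatic line whose parent it is. Total RNA of the cultured lines was read on an Affymetrix exon array, with 1 array of MKN45 and 1 array of MKN45P. Both lines were grown in the same medium and detached with trypsin, and ribosomal RNA was reduced in both. No replicate of either line was available, so no difference could be tested and no p-value is given.

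The carriers of these families move ions across membranes by coupling one ion to another. Cotransporters carry ions, or an ion and a nutrient, in the same direction, and most of them run on the sodium gradient made by the sodium pump. Exchangers swap an ion on one side for an ion on the other. In gastric and intestinal epithelium such carriers load cells with chloride, move bicarbonate and protons, take up phosphate and nutrients, and set cell volume and pH.

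Values are log2 intensities as deposited, with the median of all probesets at 1.93 in MKN45 and 1.91 in MKN45P. For each probeset the MKN45 value was subtracted from that of MKN45P, and the median of these over a gene is called its difference, where 1 is 2-fold. The range given with it is the interquartile range over the probesets, which is spread within these arrays and not replicate error. Genes with 4 or more probesets and a median level of 1.92 or above, taking the mean of both arrays, are called measured. Of the members, 45 were measured, 21 were below that level and 2 had too few probesets. Probes differ in how strongly they bind, so levels of different genes are not compared. Of 6 epithelial markers all were above 2.77 in both lines, with levels between 3.31 and 10.26 in MKN45 (MKN45P 3.13 to 10.74). CLDN7 (1.14) was 2-fold higher in MKN45P, CDH1 was at 0.55 and EPCAM at 0.83, while the keratin genes KRT19 (-0.76), KRT8 (-0.21) and KRT18 (-0.08) had differences below 0. KRT19 had 2 probesets, fewer than the 4 required, so 5 of the 6 epithelial markers were measured. Of markers of other cells, 4 of 6 immune, 5 of 7 endothelial and 5 of 7 fibroblast genes passed the level filter. In each of these 3 lists 5 genes lay below 2.77 in both lines, the leukocyte gene PTPRC (1.66 and 1.65) and the endothelial gene PECAM1 (1.75 and 1.74) among them. The others with values above that were NKG7 (3.12 in MKN45), ENG (3.40 and 2.77), CLDN5 (3.30 and 2.85), COL1A1 (2.86 in MKN45P) and FBLN1 (3.35 and 4.52), the last being 2-fold higher in MKN45P. The part of these markers in the results below was not tested.

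In MKN45P, 3 of the 45 measured members differed 2-fold or more from MKN45. SLC12A2 and SLC4A4 were lower, and SLC20A1 was higher. That is 6.67% of the measured members, and over all 13130 measured genes the share was 5.78%, so the total count was near the background. By direction, 2 members (4.44%) were 2-fold lower against 1.20% of all measured genes, a share that rests on these 2 genes, and 1 member (2.22%) was 2-fold higher against 4.58%. The median difference over the measured members was -0.06 (interquartile range -0.17 to -0.02), and over all measured genes it was 0.03 (-0.13 to 0.30). A difference below 0 was found in 35 members (77.8%) and in 45.1% of all measured genes. With the arrays scaled by quantile normalization or loess the count of members was 32 or 31. Most of these differences were small: 30 of the 45 members differed by less than 0.25. Near the low end of the scale values are compressed, so a difference there understates the difference in RNA. Of the 16 measured members at or above 2.77, the 75th percentile of probeset levels, 12 had a difference below 0. Of all measured genes at such levels 37.2% had one. Of the 29 measured members below 2.77, 23 had a difference below 0, and the median of the 29 was -0.06. Over all measured genes below 2.77 the median was -0.03, against 0.12 at or above it. The share of 45.1% is thus not matched to the levels of the members.

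**Figure D1:**
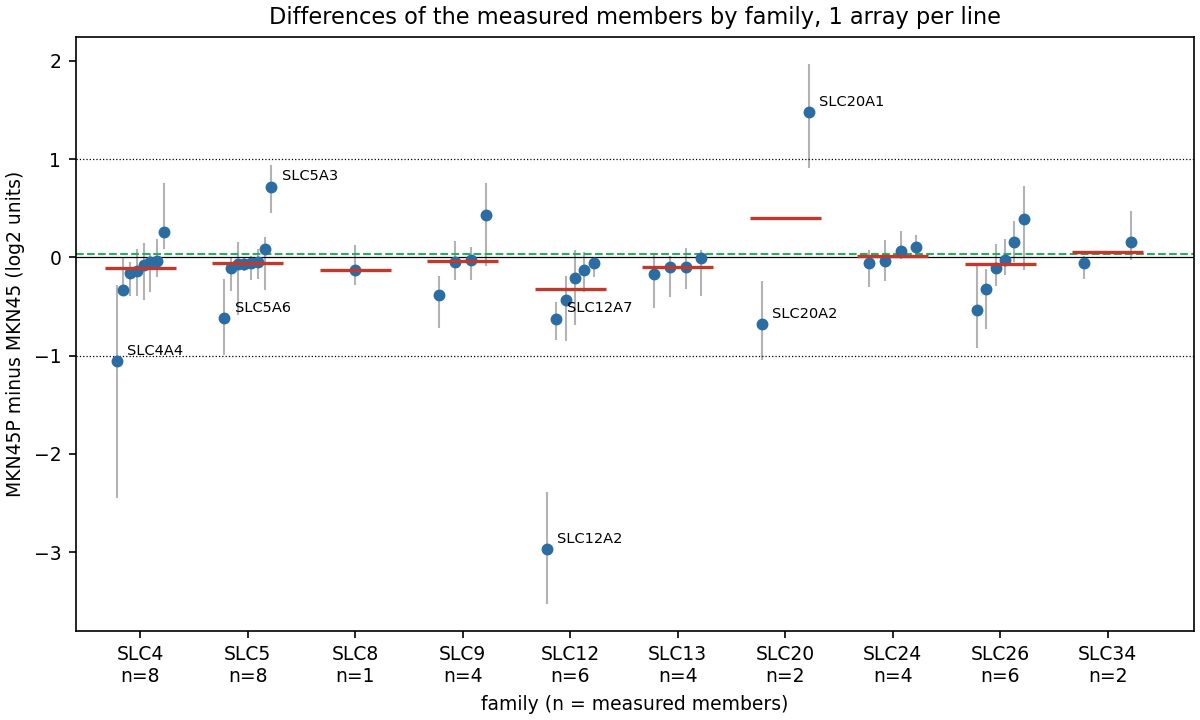
Differences of the 45 measured members (MKN45P minus MKN45, log2 units) by family, with 1 array per line. Each point is a gene and its grey line the interquartile range over its probesets, red bars are family medians, the dashed green line is the median of all measured genes at 0.03 and dotted lines mark 2-fold. Only SLC12A2, SLC4A4 and SLC20A1 lie past 2-fold among these members.

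The SLC12 family holds the cation and chloride cotransporters, and all 6 of its measured members had a difference below 0, with a median of -0.32. All 6 stayed below 0 under quantile normalization, loess and centring on the median of measured genes. SLC12A2 encodes NKCC1, which brings sodium, potassium and chloride into the cell together and supplies chloride for epithelial secretion. Its median level was 7.71 in MKN45 and 4.28 in MKN45P. The difference was -2.97 (-3.53 to -2.39), or 7.83-fold lower in MKN45P, the sixth lowest of all measured genes. All 32 of its probesets were lower in MKN45P and 29 were at least 2-fold lower. Across all probesets with 1 symbol, 4.06% were 2-fold lower. In MKN45 its probesets lay between 2.39 and 11.75, and in MKN45P between 1.77 and 9.35, so the ranges over probesets overlapped while every single probeset pointed the same way. In MKN45P 27 of the 32 probesets were still at or above 2.77. The transcript was thus read above the low end of the scale in both lines. In bulk RNA, fewer cells with a transcript and less of it per cell cannot be told apart.

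The other SLC12 members differed by less than 2-fold. SLC12A7 encodes the potassium and chloride cotransporter KCC4, which carries both ions out of the cell. Its levels were 6.98 in MKN45 and 6.33 in MKN45P, with a difference of -0.62 (-0.84 to -0.45) and 24 of 26 probesets lower. SLC12A9, a relative whose cargo is less well defined, was at -0.43 (-0.85 to -0.19), with 27 of 30 probesets lower. SLC12A4, which encodes KCC1, was at -0.21, and its 39 probesets were divided, where 8 were 2-fold lower or more and 2 were 2-fold higher or more. The renal cotransporter gene SLC12A3 was at -0.13 and the neuronal SLC12A5 at -0.06, both at levels under 2.77. SLC12A1, which encodes NKCC2, the renal relative of NKCC1, was below the level filter, at 1.70 in MKN45 and 1.67 in MKN45P. SLC12A8 had 1 probeset with that symbol alone, at 2.69 in MKN45 and 2.87 in MKN45P.

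**Figure D2:**
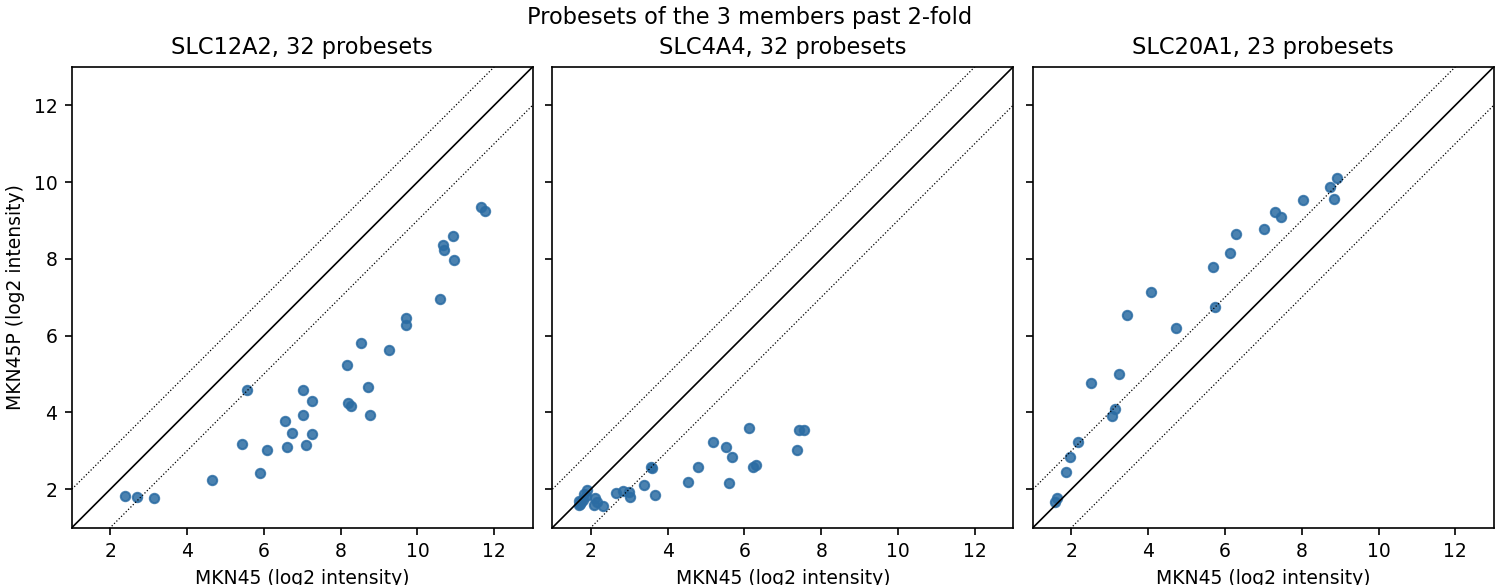
Each point is a probeset of SLC12A2 (32), SLC4A4 (32) or SLC20A1 (23), with its log2 intensity in MKN45 on the x axis and in MKN45P on the y axis. The solid line is equality and dotted lines mark 2-fold; all SLC12A2 points lie below the solid line, all SLC20A1 points above it, and SLC4A4 points reach 7.55 in MKN45 and 3.60 in MKN45P.

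The stretch of 250 bases before the start of the gene is shown for SLC12A2 and SLC20A1, the measured members whose probesets all differed in the same direction. The sequences come from RefSeq promoters of GRCh38.p14 and were matched by symbol. They are chr5:128083516-128083765 (+ strand) for SLC12A2 and chr2:112645689-112645938 (+ strand) for SLC20A1. Capitals mark matches, on either strand, to any of 7 motifs searched. These were the GC box with the letters GGGCGG, the CCAAT box, the TATA box written TATAAA, the E-box written CACGTG, the cAMP element written TGACGTCA, the STAT element written TTCNNNGAA and the core of the tonicity element written TGGAAA.
SLC12A2: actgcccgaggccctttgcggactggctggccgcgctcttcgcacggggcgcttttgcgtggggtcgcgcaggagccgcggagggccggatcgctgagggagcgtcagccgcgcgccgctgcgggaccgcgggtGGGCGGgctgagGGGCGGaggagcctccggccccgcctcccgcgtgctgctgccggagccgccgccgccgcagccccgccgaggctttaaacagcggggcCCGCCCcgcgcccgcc
SLC20A1: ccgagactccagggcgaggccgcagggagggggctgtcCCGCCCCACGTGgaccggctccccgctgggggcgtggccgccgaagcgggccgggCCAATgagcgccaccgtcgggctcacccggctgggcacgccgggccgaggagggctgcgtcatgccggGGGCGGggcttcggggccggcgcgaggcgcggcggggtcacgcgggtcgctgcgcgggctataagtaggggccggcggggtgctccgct
The SLC12A2 stretch was 79.6% G and C and held 3 GC boxes and no match to the other motifs. The SLC20A1 stretch was 80.0% G and C and held 2 GC boxes, 1 CCAAT box and 1 E-box, with a GC box and the E-box directly side by side. Of all 35116 promoters of this length in the table, 42.6% held the GC box, 32% the CCAAT box, 10.7% the TATA box, 6.34% the E-box, 1.65% the cAMP element, 6.57% the STAT element and 18% the tonicity core, and the median share of G and C was 58.0%. The matches describe letters and not binding. SLC4A4 has 5 starts in that table, with 39.2%, 78.8%, 75.2%, 45.2% and 48.4% G and C, and the arrays as used here do not tell which of them the lines use.

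The SLC4 family moves bicarbonate, and SLC4A4 was its only measured member past 2-fold. SLC4A4 encodes NBCe1, which carries sodium with bicarbonate and helps epithelia to load or release base. Its median level was 3.20 in MKN45 and 1.97 in MKN45P, and the difference was -1.06 (-2.45 to -0.28), just past 2-fold. With loess scaling it was -0.93, short of 2-fold. The probesets of the gene differed widely among themselves, from -4.34 to 0.09. At 13 probesets both lines were below 2.77, and the median difference there was -0.09. The highest MKN45 value of the gene was 7.55 and the highest MKN45P value 3.60. None of the 32 probesets reached 5 in MKN45P. Over the 14 probesets whose mean level was at or above 2.77 the difference was -2.68, and all 14 were lower in MKN45P. A mean level can pass through the higher line alone, so this value describes those probesets and adds no support.

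In SLC4A4 the probesets with signal were unevenly placed along the probeset IDs, a division chosen after the values were seen. Among the 13 with the lowest IDs the highest MKN45 value was 3.68, and the median difference was -0.33. Among the 19 with the highest IDs, 10 were at 5 or above in MKN45, and the median difference was -2.35. The IDs were not placed on exons here.

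Other SLC4 members differed by less than 2-fold. SLC4A2 encodes AE2, the chloride and bicarbonate exchanger of many epithelia. It was at 6.001 in MKN45 and 5.54 in MKN45P, with a difference of -0.33 (-0.39 to 0.01) and 21 of 29 probesets lower. The sodium bicarbonate cotransporter gene SLC4A7 was at 3.02 and 3.05, with a difference of -0.04 (-0.20 to 0.19). SLC4A5, which encodes a further electrogenic bicarbonate cotransporter, had a difference of 0.26 (0.09 to 0.76) and was the only one of the 8 measured SLC4 members above 0. Of its 32 probesets 26 were higher in MKN45P, 4 of the 32 were at least 2-fold higher and 1 was at least 2-fold lower. Across all probesets with 1 symbol, 8.82% were 2-fold higher and 4.06% were 2-fold lower. The median levels of SLC4A5, 2.08 in MKN45 and 2.43 in MKN45P, were both under 2.77. The anion exchanger genes SLC4A1 (-0.15) and SLC4A3 (-0.14), SLC4A9 (-0.05) and SLC4A11 (-0.08) lay close to 0. SLC4A8 and SLC4A10 were below the level filter.

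The 2 measured SLC20 members differed in opposite directions. Both encode sodium-coupled phosphate importers of the plasma membrane, PiT-1 from SLC20A1 and PiT-2 from SLC20A2. SLC20A1 was at 4.73 in MKN45 and 6.74 in MKN45P, a difference of 1.47 (0.91 to 1.97), or 2.78-fold higher. All 23 of its probesets were higher in MKN45P and 16 were at least 2-fold higher. Its 2 probesets with the smallest differences (0.10 and 0.14) were below 2.77 in both lines. SLC20A2 was at 3.95 in MKN45 and 3.31 in MKN45P, a difference of -0.68 (-1.05 to -0.24), with 18 of 21 probesets lower and 7 of them at least 2-fold lower. The interquartile ranges of the 2 genes lay on opposite sides of 0.

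The SLC34 family holds the sodium phosphate cotransporters of kidney, gut and lung, and its measured members were near 0. SLC34A2, the form of lung and intestine, was at 1.91 in MKN45 and 2.39 in MKN45P, with a difference of 0.16 (-0.03 to 0.47). The renal SLC34A1 was at -0.05 (-0.22 to 0.02). SLC34A3 had 2 probesets, fewer than required.

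The SLC26 family moves chloride, bicarbonate, sulfate and other anions, and none of its 6 measured members passed 2-fold. SLC26A6 encodes an apical exchanger of chloride for bicarbonate or oxalate. It was at 3.07 in MKN45 and 2.45 in MKN45P, with a difference of -0.54 (-0.93 to -0.07) and 32 of 37 probesets lower. The 43 probesets annotated to both SLC26A6 and CELSR3 were left out, and their median difference was 0.54. Which gene those 43 read was not tested. All 18 probesets of SLC26A6 alone with a mean level at or above 2.77 were lower, 9 of them at least 2-fold. Such a mean can pass through the higher line alone. Of the gene's 37 probesets, 21 reached 2.77 in MKN45 and 12 in MKN45P, so the count of 18 adds no support. SLC26A9, which encodes a chloride channel of stomach and airway epithelium, was at -0.32 (-0.73 to -0.12), with 25 of 28 probesets lower. SLC26A11, an anion transporter gene, had the highest difference of the family, 0.39 (-0.13 to 0.73), at 2.92 in MKN45 and 3.62 in MKN45P. Its probesets were divided, with 14 of 22 higher. The sulfate transporter genes SLC26A2 (0.16) and SLC26A1 (-0.11) and SLC26A10 (-0.03), now listed as the pseudogene SLC26A10P, lay closer to 0. SLC26A3, SLC26A4, SLC26A5, SLC26A7 and SLC26A8 were below the level filter, among them the intestinal chloride exchanger gene SLC26A3 at 1.70 in MKN45 and 1.68 in MKN45P.

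The SLC5 family uses the sodium gradient to take up sugars, inositol, vitamins and other small molecules, and none of its 8 measured members passed 2-fold. SLC5A6 encodes the multivitamin carrier for biotin and pantothenate. It was at 5.38 in MKN45 and 4.64 in MKN45P, a difference of -0.62 (-0.99 to -0.22), with 26 of 32 probesets lower and 8 of them at least 2-fold lower. SLC5A3 encodes the carrier of myo-inositol, an organic osmolyte. It was at 4.15 in MKN45 and 4.87 in MKN45P, a difference of 0.72 (0.45 to 0.94). That value rests on 4 probesets, of which 3 were higher. The 2 probesets annotated to both SLC5A3 and MRPS6 were left out, and their median difference was -0.23. The sugar carrier genes SLC5A1 (-0.06), SLC5A2 (-0.07), SLC5A9 (-0.06) and SLC5A10 (-0.11), the inositol carrier gene SLC5A11 (-0.05) and the iodide carrier gene SLC5A5 (0.09) were close to 0. In SLC5A2 the probesets disagreed, where 13 of 20 were lower, 3 were 2-fold higher or more and 1 was 2-fold lower or more. Across all probesets with 1 symbol, 8.82% were 2-fold higher and 4.06% were 2-fold lower. The median levels of SLC5A2, 3.50 in MKN45 and 2.84 in MKN45P, lay further apart than its difference of -0.07. SLC5A4, SLC5A7, SLC5A8 and SLC5A12 were below the level filter.

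The SLC9 family exchanges sodium for protons. SLC9A2, an apical exchanger gene of gastric and intestinal epithelium, was at 2.51 in MKN45 and 2.13 in MKN45P, a difference of -0.39 (-0.72 to -0.19), with 18 of 19 probesets lower. Most of its probesets were near the low end, and over the 5 with a mean level at or above 2.77 the difference was -1.17. That level can be passed through the higher line alone, so the value over the 5 is only a description. SLC9A8, an exchanger gene of the Golgi, was at 2.69 in MKN45 and 2.85 in MKN45P, with a difference of 0.43 (-0.09 to 0.75) and 13 of 19 probesets higher. SLC9A3, the main absorptive exchanger gene of the gut, was at -0.04 (-0.23 to 0.17), and SLC9A5 was at -0.02. SLC9A4, SLC9A9, SLC9A10 and SLC9A11 were below the level filter. The last pair are now named SLC9C1 and SLC9C2.

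The calcium exchangers of the SLC8 and SLC24 families and the sulfate and carboxylate cotransporters of the SLC13 family had small differences over all their probesets. SLC8A2 was the only measured SLC8 member, at -0.12 (-0.29 to 0.13), and at -0.35 over its 3 probesets with a mean level at or above 2.77. SLC24A6, now named SLC8B1, encodes the sodium and calcium exchanger of mitochondria. It was at 3.37 in MKN45 and 3.38 in MKN45P, with a difference of -0.04 (-0.24 to 0.17). SLC24A3 was at -0.06, SLC24A1 at 0.06 and SLC24A2 at 0.11, all at levels under 2.77. The 4 measured SLC13 members ran from -0.17 to -0.01, and 3 of the 4 stayed below 0 with quantile normalization or loess. SLC13A2, a carrier gene of citrate and related acids, was at -0.17 (-0.52 to 0.04), and at -0.61 over 6 such probesets, and SLC13A3 was at -0.10 (-0.41 to 0.01). SLC8A1, SLC8A3, SLC13A1, SLC24A4 and SLC24A5 were below the level filter, SLC24A4 with 5 such probesets at -1.16. Values over such probesets are only descriptions, because a mean level can pass through the higher line alone. Across the 23 members that were not measured, differences ran from -0.17 to 0.18, and where the level was below the filter this says little about RNA.

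**Figure D3:**
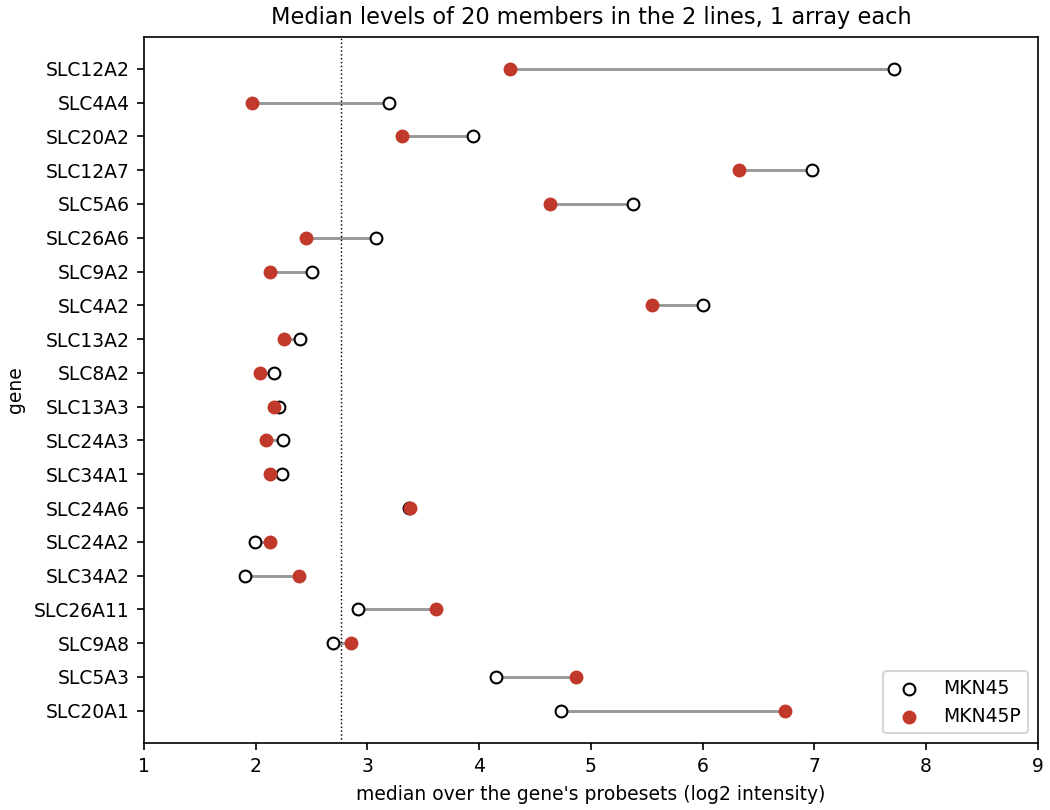
Median log2 intensity over the probesets of 20 members in MKN45 (open circles) and MKN45P (filled circles), 1 array each, ordered by the difference. The dotted line is the 75th percentile of probeset levels, 2.77; levels of different genes are not comparable. SLC12A2 spans from 7.71 to 4.28 and SLC20A1 from 4.73 to 6.74.

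When the probesets with signal were taken alone, more members lay 2-fold lower; a probeset can pass that level through the higher line alone, so this is a description. With at least 2 probesets at or above 2.77 required, 49 members had a value, and 4 of them (8.16%) were 2-fold lower: SLC12A2, SLC4A4, SLC9A2 and SLC24A4. Over all 13448 genes with such probesets 3.35% were 2-fold lower. SLC24A4, a calcium exchanger gene below the level filter as a whole, was at -1.16 over 5 such probesets. SLC20A1 was the 1 member 2-fold higher (2.04%, against 10.3% of all such genes), at 1.69. The median over the 49 members was -0.35, and over all such genes it was 0.00.

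Single probesets also departed from their gene. Among the probesets of measured members, 11 (1.03%) lay at least 2 below their gene's difference and 2 (0.187%) at least 2 above it. Over all measured genes these shares were 0.448% and 0.659%. Of the 11, SLC4A4 held 6, the group described above. The others were 1 each in SLC26A6, SLC4A9, SLC5A10, SLC5A2 and SLC9A2. In SLC26A6 that probeset read 7.20 in MKN45 and 4.002 in MKN45P, against a gene difference of -0.54. In SLC4A9, an anion exchanger relative, it read 5.51 and 2.55, while the gene as a whole was at -0.05. The 2 upward departures were both in SLC12A2, at probesets of 2.69 and 2.39 in MKN45, near the low end of the scale.

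Genes that work with these carriers were described from 6 lists of 8 to 11 measured genes, chosen with earlier results of these data known. In these lists 3 genes were 2-fold lower and 1 was 2-fold higher. Over all measured genes 1.20% were 2-fold lower and 4.58% were 2-fold higher. The sodium pump makes the gradient most of the carriers use. Of its 10 measured subunit genes 1 was 2-fold lower, ATP1B1, a beta subunit, at 10.12 in MKN45 and 8.50 in MKN45P (-1.33, -1.59 to -1.03). The regulatory subunit gene FXYD4 was 2-fold higher, at 2.31 in MKN45 and 4.84 in MKN45P (2.05, 0.86 to 3.59 over 8 probesets). Of the 10 genes 7 had a difference below 0, as had 45.1% of all measured genes, and the list's median was -0.14. Among 8 measured genes of the chloride and potassium channels of secretion, 1 was 2-fold lower. It was ANO1, the calcium-activated chloride channel, at 7.84 in MKN45 and 5.43 in MKN45P (-1.74, -2.24 to -1.29). KCNN4, a potassium channel gene, was at -0.38, 3 of the 8 genes had a difference below 0, and the list's median was 0.05. CFTR, the cAMP-regulated chloride channel gene, was below the level filter, at 1.72 in MKN45 and 1.70 in MKN45P. Carbonic anhydrases make bicarbonate, and of 9 measured genes 1 was 2-fold lower, CA2, at 6.28 in MKN45 and 4.44 in MKN45P (-1.58, -2.04 to -0.33). CA12 was at 0.51, 6 of the 9 genes had a difference below 0, and the list's median was -0.04.

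No gene passed 2-fold in the other 3 lists. The WNK kinases and their partners set the activity of SLC12 cotransporters by phosphorylation. Of 11 measured genes 8 had a difference above 0, as had 54.9% of all measured genes, and the list's median was 0.18. WNK1 was at 6.76 in MKN45 and 7.79 in MKN45P (0.73, 0.38 to 1.17). STK39, which encodes the kinase SPAK that acts on NKCC1, was at 1.82 and 3.11 (0.60, 0.29 to 1.602), near the low end of the scale in MKN45. OXSR1, a further gene of the list, was at 6.47 in MKN45 and 6.24 in MKN45P (-0.10, -0.39 to 0.17). SGK1, a kinase gene of sodium handling, was just short of 2-fold at -0.999, with a wide range of -3.21 to -0.13. The gastric proton pump and calcium pumps had a median of 0.06 over 11 genes, 4 of them below 0, with ATP2C1 at 0.50 and ATP2A2 at 0.39. The scaffolds and regulators of exchangers had a median of -0.11 over 8 measured genes. Of these 7 were below 0, as were 45.1% of all measured genes. CHP was at -0.61 and AHCYL2 at -0.49, while SLC9A3R2 (-0.006) and TESC (-0.009) were almost at 0. EZR was above 0, at 0.25 (0.08 to 0.79).

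**Figure D4:**
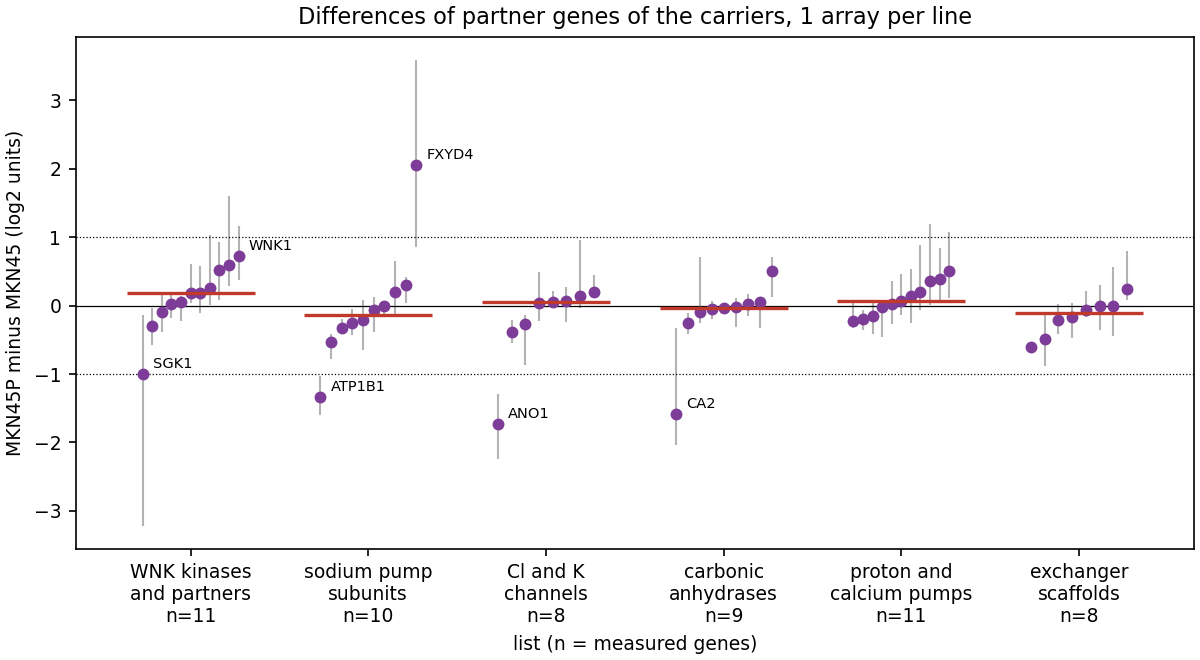
Differences (MKN45P minus MKN45, log2 units) of the measured genes of 6 partner lists, 1 array per line. Each point is a gene and its grey line the interquartile range over its probesets, red bars are list medians and dotted lines mark 2-fold. ATP1B1, ANO1 and CA2 lie past 2-fold below and FXYD4 above.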

How the data were processed

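Each line was read on 1 array. The deposited values are log2 intensities, 1 per probeset and array, used as deposited; the base was read from the values. The submitters' processing notes name Partek and hg18; how background was corrected, probes summarised and arrays normalised is not stated in what was used here. Of 877986 probesets, 286871 had exactly 1 gene symbol in the platform annotation in GEO and were used. The number of arrays limits the precision: there was no replicate, hence no test, and counts are by size. The members and lists were chosen with earlier results of these data known. Named members were those past 2-fold, the 2 with the largest differences in each family, the 8 with the highest levels and those with 2 or more probesets departing alike. A further member was named where it accounts for a count. Alternatives changed the gene summary, scaling, filters, probesets used and symbols. Calculations used Python 3.11.15, numpy 2.4.6, pandas 2.3.3 and statsmodels 0.14.6 (loess), and the gene step was tested on simulated data. RefSeq tables of GRCh38.p14 served for names and promoters.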

Additional observations from a re-analysis of the deposited data

How the results depend on the processing

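Of 11 alternatives, 5 only choose which genes are kept and left the 89 differences of named members as they were. Under the other 6 SLC20A1 was the 1 member 2-fold higher (1.37 to 2.002), and SLC12A2 was 2-fold lower (-3.43 to -2.88). SLC4A4 ran from -2.68 to -0.93, the latter with loess. The count of members 2-fold lower was 1 with loess, where SLC4A4 fell short of 2-fold, 1 when only genes with a level of 2.77 or more were kept, which leaves SLC4A4 out, and 4 with probesets with signal alone. With these probesets alone the median over measured members was -0.35, and family medians were -0.33 for SLC4, -0.38 for SLC5, -0.35 for SLC8, -0.55 for SLC12, -0.47 for SLC26 and -0.27 for SLC34, the last with the other sign. With that level filter SLC9 (0.43) and SLC26 (0.39) took the other sign, each being then a single gene, SLC9A8 and SLC26A11. With the difference between median levels SLC20 was at 0.68. Measured genes past 2-fold numbered 1568 with the difference between median levels and 1830 with probesets with signal. The cause was not tested. Of 119 values of named members under the 6 alternatives, 117 moved by less than the SD over their probesets. Those that moved more were SLC4A4 and SLC9A2 (-1.17), with probesets with signal. The SD is a wide bound and can exceed the difference itself. In SLC13A2 it was 0.47 with a difference of -0.17, which moved to -0.61, and in SLC34A2 0.42 with 0.16. Staying within the SD therefore says little about stability. Near 0, the SLC24 median took the other sign under 4 alternatives (to -0.13), SLC9 did so with loess (0.04), SLC26 with the difference between median levels (0.0078) and SLC34 with no minimum of probesets (-0.05). SLC24A6 (to 0.00) and SLC34A2 (to -0.14) took the other sign once each. No paired analysis was possible because each line has 1 array. Both lines' values near the low end limit what can be seen of weak members.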

Other observations

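Some probesets carried a member's symbol beside another gene's and were left out of the members' values. There were 88 of them. The 43 annotated to both SLC26A6 and CELSR3 were at 4.27 in MKN45 and 4.84 in MKN45P, with a median difference of 0.54 (interquartile range 0.07 to 1.16), whereas the probesets of SLC26A6 alone were at -0.54. The 19 annotated to SLC12A8 and ZNF148 were at 4.08 in MKN45 and 3.24 in MKN45P (-0.53, -0.88 to -0.28). The 2 annotated to SLC5A3 and MRPS6 were at -0.23, against 0.72 for the 4 probesets of SLC5A3 alone. The 3 annotated to SLC34A2 and ROS1 were at -0.09, and the 14 annotated to SLC26A10 and GEFT at 0.18. Which of the paired genes these values belong to was not tested.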
